A study of Bos taurus with 6 samples.

Results

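Glycolysis is the route by which cells split glucose into pyruvate, and gluconeogenesis is the reverse route to glucose. The genes described here are those of the authors' table with a KEGG (pathway annotation) entry of key 00010, glycolysis and gluconeogenesis, and none of key 00020, the citrate cycle. They were 47 of the 17663 genes of the table and of the 5683 with a KEGG entry. A further 6 genes carried both keys and were left out by that rule, namely DLD, DLAT, PDHX, PDHB, PCK1 and PCK2. The 47 genes covered 16 steps. The phosphoglycerate kinase step had no gene in the list and was not analysed here.

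The study asked how the fat-1 gene, whose product turns n-6 PUFA (polyunsaturated fatty acids) into n-3 PUFA, affects energy metabolism in bovine fetal fibroblasts (bEFs). Poly(A) RNA was sequenced from primary bEFs of 3 fat-1 transgenic cattle fetuses (FT cells) and 3 wild-type fetuses, which the methods name as Luxi cattle (WT cells). Each fetus gave 1 library (n = 3 per group). Fetal age was 50 to 60 days, and what was put in culture was the trunk tissue without bone or inner organs. The breed of the FT fetuses, the promoter of the transgene and the sex of the fetuses are not given in the sources used here, so that breed and transgene cannot be told apart. Counts per library ranged from 48167642 in FT_2 to 69777641 in WT_1, of which the 47 genes took 1.28% (FT_1), 0.901% (FT_2), 0.882% (FT_3), 1.51% (WT_1), 1.67% (WT_2) and 1.51% (WT_3). The share was thus lower in each FT library than in each WT library, with FT_1 between the other FT libraries and the WT libraries.

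As background, the preparatory steps of glycolysis spend ATP to phosphorylate glucose and cleave it into triose phosphates, and the payoff steps oxidize these to pyruvate and return ATP and NADH. Hexokinase, phosphofructokinase and pyruvate kinase catalyse the steps that are irreversible in the cell, most steps are shared with gluconeogenesis, and several are served by isozymes from separate genes. Cultured fibroblasts turn much of their glucose into lactate, through lactate dehydrogenase, which restores the NAD that the pathway consumes.

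FT_1 stood apart from the other libraries. Across genes, its log2 counts correlated with those of FT_2 and FT_3 at r = 0.774 and 0.770, whereas FT_2 with FT_3 gave 0.994 and the WT pairs gave 0.990 to 0.994. Counts of genes and most gene values are therefore given with all 6 libraries and without FT_1. The fibroblast label was checked against 9 marker genes, all of them detected in each library, with VIM (vimentin) the most abundant by its mean over the 6 libraries. Their summed FPKM (fragments scaled by gene length and library size) was 6776, 16989 and 16716 (FT_1, FT_2, FT_3) and 17743, 17210 and 17289 (WT_1, WT_2, WT_3), lowest in FT_1. Within that list the genes did not move together. VIM had 1244 (FT_1), 3850 (FT_2) and 4171 (FT_3) beside 7891 (WT_1), 8178 (WT_2) and 7312 (WT_3) and lay below WT in each FT library, and PDGFRA rose, with a log2 fold change of 1.06 ± 0.17 (SE; adjusted p = 0.0053). DCN and LUM were above the WT libraries in FT_2 and FT_3 and below them in FT_1. Of 5 epithelial markers, KRT5 was the most abundant by its mean over the 6 libraries, through FT_1. The summed FPKM of the list was 304, 11.0 and 10.8 (FT_1, FT_2, FT_3) and 10.0, 7.83 and 13.9 (WT_1, WT_2, WT_3). CDH1 made up the whole of the WT sums and was above KRT5 in every library but FT_1. It had 36.3 (FT_1), 7.11 (FT_2) and 8.41 (FT_3), so that FT_2 and FT_3 did not lie above WT. KRT5 itself had an FPKM of 172 (FT_1), 2.57 (FT_2) and 1.63 (FT_3), KRT8 had 84.1 (FT_1), 0.95 (FT_2) and 0.61 (FT_3), and KRT5, KRT8 and KRT18 were at 0 in each WT library. EPCAM was at 0 in every library but FT_1, where its FPKM was 0.57. The epithelial keratins were thus far higher in FT_1 than elsewhere.

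Other marker lists also differed between the groups. The mesothelial list summed to 199.7, 45.0 and 46.3 (FT_1, FT_2, FT_3) and 2.32, 3.48 and 3.34 (WT_1, WT_2, WT_3), almost all of it from MSLN, which was higher in each FT library and highest in FT_1. UPK3B was above the WT libraries in FT_1 and below them in FT_2 and FT_3. The gene WT1 was near the floor in both groups and not tested, at 0 in FT cells beside 0.04 (WT_1), 0.05 (WT_2) and 0.03 (WT_3). The adipocyte list, led by FABP4 in its mean over the 6 libraries, summed to 1.44, 10.9 and 11.9 (FT_1, FT_2, FT_3) and 142, 129 and 145 (WT_1, WT_2, WT_3). ADIPOQ was near the floor in both groups and not tested, at 0 in FT cells beside 0.28 (WT_1), 0 (WT_2) and 0.07 (WT_3). LEP and PLIN1 did not follow FABP4, as LEP rose, with 0.03 (FT_1), 4.91 (FT_2) and 4.45 (FT_3) beside 0.09 (WT_1), 0.07 (WT_2) and 0.02 (WT_3), and PLIN1 was slightly above WT in each FT library. For skeletal muscle the sum was 5.80, 4.67 and 3.82 (FT_1, FT_2, FT_3) and 1.32, 1.35 and 2.08 (WT_1, WT_2, WT_3). It was higher in FT cells through DES alone, since MYF5, with 0.03 (FT_1), 0.59 (FT_2) and 0.61 (FT_3) beside 1.06 (WT_1), 1.31 (WT_2) and 1.93 (WT_3), was lower in each FT library, and MYH3 fell. CKM, ACTA1, MYH3 and TNNT1 were at 0.12 or less in every library. The macrophage and blood list, led by CD14, summed to 4.06, 4.12 and 3.52 (FT_1, FT_2, FT_3) and 7.93, 6.65 and 7.77 (WT_1, WT_2, WT_3), and the neural list, led by TUBB3, to 2.03, 1.28 and 1.54 (FT_1, FT_2, FT_3) and 2.77, 3.74 and 3.19 (WT_1, WT_2, WT_3). Each FT library had a lower sum than each WT library in both lists. The endothelial list, led by PECAM1 in its mean and with each gene under an FPKM of 1, summed to 0.65, 0.36 and 0.35 (FT_1, FT_2, FT_3) and 1.26, 0.79 and 0.88 (WT_1, WT_2, WT_3). Of the erythroid list only HBA had values, at 0 in every library but FT_3 (0.04). The part that these cell type differences have in the results that follow was not tested. Whether FT_1 holds the same cell population as FT_2 and FT_3 cannot be told from the deposited values. Fold changes over all FT libraries are to be read with that limit. In bulk RNA, fewer cells of a type and less RNA per cell cannot be told apart.

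Counts were compared between FT and WT cells with edgeR's quasi-likelihood test over all genes, and a gene is said to have risen or fallen where its Benjamini-Hochberg adjusted p was under 0.05. Of the 47 genes, 42 passed the filter on low counts. HKDC1, FBP2, PGAM2, ADH1C and ADH6 did not, and their FPKM was at most 1 in any library. Of the 42 tested, 14 fell in FT cells and 2 rose, while 18.9% of all 13482 tested genes fell and 20.1% rose. At the threshold in the study's methods, an unadjusted p under 0.05 with a log2 fold change beyond 1 in size, 5 of the 42 were lower and 0 higher, against 8.96% and 10.2% of all genes. At an unadjusted p under 0.05 alone, 16 were lower and 3 higher, against 23.9% and 25.7% of all genes. At the study's threshold limma on log2(FPKM + 1) found 0 and DESeq2 found 1 gene, BPGM, higher, against 3.77% and 8.85% of all genes that they tested. They found 4 and 6 lower, against 8.38% and 7.87%. The median log2 fold change of the 42 genes was -0.38, and that of all tested genes was 0.03. Without FT_1 the median was -0.39 for the tested genes of the list and -0.02 for all genes.

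Leaving out FT_1 changed these numbers. Then 23 of the 42 genes were lower and 8 higher at an adjusted p under 0.05, against 31.5% and 30.6% of the 13765 genes tested, and the 16 genes that had fallen or risen with 6 libraries were all among them with the same sign. Fewer genes were lower when a WT library was left out, 8 without WT_1, 8 without WT_2 and 9 without WT_3, and the share of all tested genes also dropped, to 11.1%, 11.3% and 12.6%. When FT_2, FT_3, WT_1, WT_2 or WT_3 was left out, 1 was higher, against 15.3%, 15.6%, 11.0%, 11.6% and 13.0% of all genes. At the study's threshold and without FT_1, 8 were lower and 3 higher, against 12.2% and 11.0% of all genes. In the FPKM values as deposited, the FT libraries lay below all WT libraries in 24 of the 42 genes and above them in 3, against 36.9% and 21.8% of all tested genes. After division by edgeR's scaling factors, 19 of the 42 lay below and 4 above, against 29.7% and 28.0% of all tested genes. Without FT_1 and as deposited, 28 lay below and 8 above, against 47.6% and 29.6%. On the log2 scale of scaled counts, FT_1 lay nearer to the WT mean than to the mean of FT_2 and FT_3 in 21 of the 42 genes, against 36.3% of all tested genes. The deposited FPKM set FT cells lower than edgeR's scaling did, by a median of -0.16 on the log2 scale over all tested genes, and the median log2 ratio of the FPKM values of all genes was -0.13. Scaled by library totals alone, edgeR placed 17 of the genes lower and 1 higher, and of all genes 3394 lower and 2049 higher in place of 2547 and 2714.

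**Figure D1:**
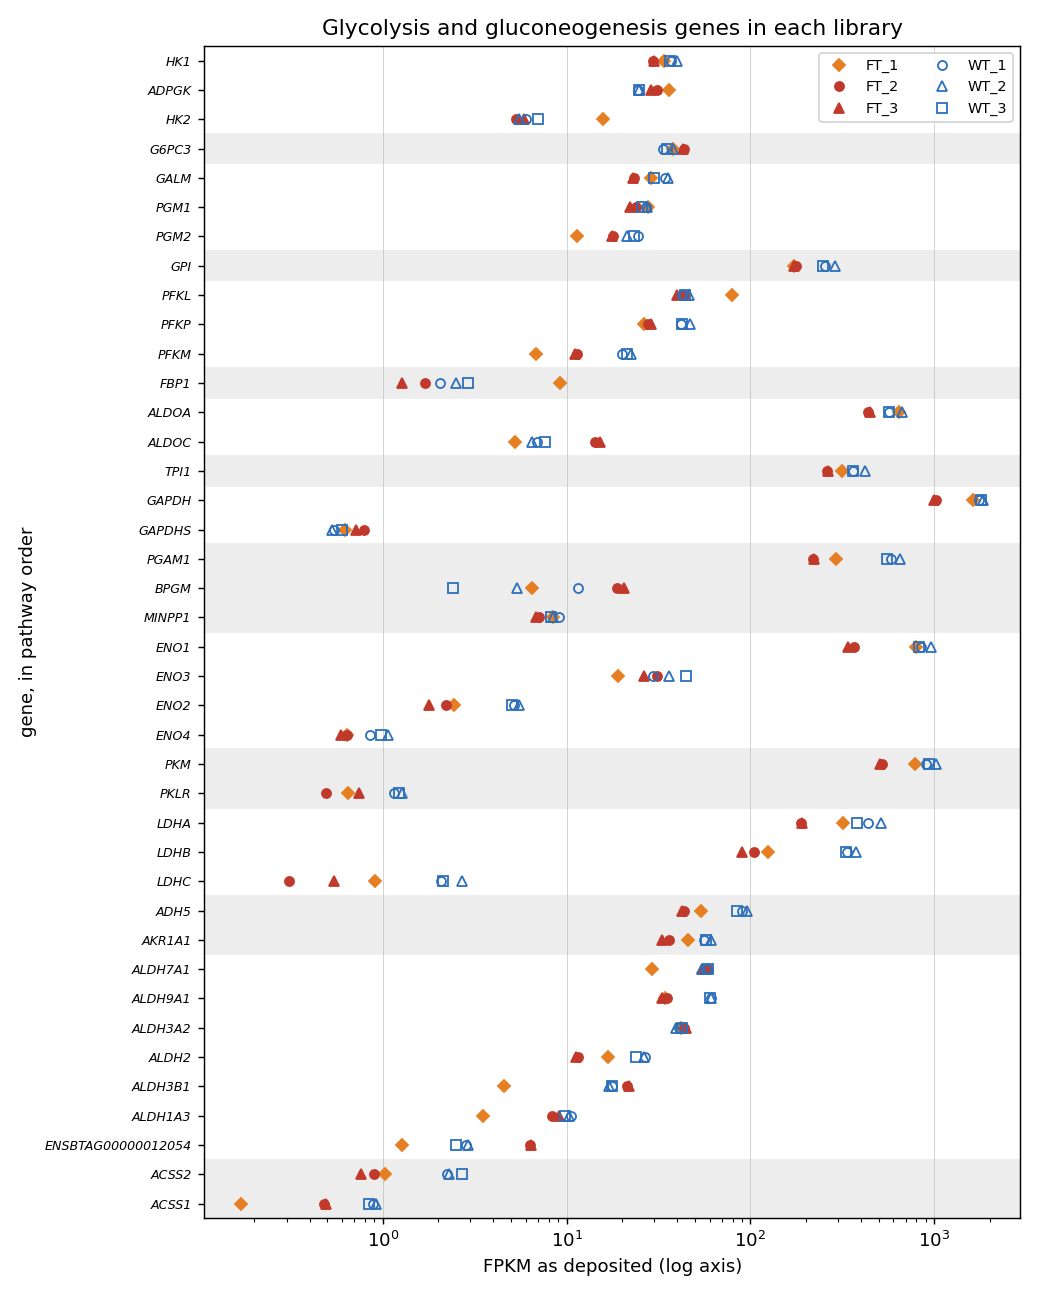
FPKM as deposited (log axis) of the tested glycolysis and gluconeogenesis genes with a mean of at least 0.5, in pathway order from top to bottom with grey bands marking alternate steps. Each symbol is 1 library, filled for FT and open for WT, with FT_1 as the orange diamond, which lies with the WT libraries for ALDOA and close to them for GAPDH and ENO1, and beyond all the others for HK2, PFKL and FBP1.

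Glucose enters the pathway by phosphorylation. HK1, a mitochondria-bound hexokinase found in most tissues (ENSBTAG00000012380, chromosome 28, 25694146 to 25769790), was the most abundant gene of this step by its mean. Its FPKM was 34.0 (FT_1), 29.5 (FT_2) and 29.9 (FT_3) beside 37.2 (WT_1), 39.9 (WT_2) and 36.4 (WT_3). As deposited, the FT values lay below the WT values without overlap, with FT_1 nearest to WT. After division by edgeR's scaling factors FT_1 no longer lay below each WT library, so the groups overlapped. In the test with 6 libraries HK1 did not pass, with a log2 fold change of -0.12 ± 0.09 (SE; adjusted p = 0.295), and without FT_1 it was -0.18 (adjusted p = 0.0372). Over the 15 alternative settings its adjusted p ran from 0.0296 to 0.551. HK1 shares 852 bases with TACR2 on the other strand, and whether reads were counted by strand is not stated in the sources used here.

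ADPGK, which phosphorylates glucose with ADP in place of ATP, rose. Its FPKM was 36.3 (FT_1), 30.9 (FT_2) and 28.6 (FT_3) beside 24.5 (WT_1), 24.8 (WT_2) and 24.9 (WT_3), so that each FT library was above each WT library. edgeR put the log2 fold change at 0.53 ± 0.09 (SE; adjusted p = 0.0079), and 0.44 without FT_1. HK2, the inducible hexokinase, had an FPKM of 15.8 (FT_1), 5.31 (FT_2) and 5.89 (FT_3) beside 5.99 (WT_1), 5.49 (WT_2) and 7.03 (WT_3). FT_1 was higher than the other libraries, which overlapped, and the log2 fold change of HK2 was 0.69 ± 0.43 (SE; adjusted p = 0.243), or 0.03 (adjusted p = 0.833) without FT_1, with a range of 0.135 to 0.833 over the alternatives. Summed over the step, the FPKM was 86.4, 66.0 and 64.7 (FT_1, FT_2, FT_3) beside 67.7, 70.6 and 68.5 (WT_1, WT_2, WT_3), above WT in FT_1 and just below WT in FT_2 and FT_3. After division by edgeR's scaling factors, and in TPM (FPKM rescaled to the same sum in each library), all 3 FT sums were above WT, so the side on which FT_2 and FT_3 lay depended on the scaling. HK1 made up 39.4%, 44.7% and 46.1% (FT_1, FT_2, FT_3) and 54.9%, 56.5% and 53.2% (WT_1, WT_2, WT_3) of that sum, a smaller part in each FT library.

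The primers of the study's RT-qPCR are shown because they define which transcripts of HK1, PFKM and PKM were its targets. They are written 5′ to 3′ in lower case as its supplement lists them. PKM was measured there as its splice forms PKM1 and PKM2, which share a single gene in the RNA table and are counted together in the values given here.
HK1 sense: tgaaggaactgtcaccaaag
HK1 antisense: aagagagaagtgctggaagg
PFKM sense: ggacaatctgcaaagaagccc
PFKM antisense: ccaccagaggttaacacggc
PKM1 sense: caagctgtttgaagaacttg
PKM1 antisense: aactatcaaagctgctgcta
PKM2 sense: tgcagcacctgattgcccgt
PKM2 antisense: aatgggtgacaggcgacgga

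Glucose 6-phosphate can be turned back into free glucose, drawn from glycogen or passed on to fructose 6-phosphate. G6PC3, the glucose-6-phosphatase found in most tissues (ENSBTAG00000016253, chromosome 19, 43907173 to 43912005), rose. Its FPKM was 37.9 (FT_1), 43.6 (FT_2) and 43.1 (FT_3) beside 33.6 (WT_1), 37.8 (WT_2) and 35.4 (WT_3). FT_2 and FT_3 were the highest libraries, and FT_1 lay just above the highest WT library. With 6 libraries the log2 fold change was 0.38 ± 0.10 (SE; adjusted p = 0.0246), and 0.46 without FT_1, over alternatives with an adjusted p of 4.40e-04 to 0.103. The call was lost (adjusted p in brackets, here and below) without FT_2 (0.0806), FT_3 (0.0788), WT_1 (0.103), WT_2 (0.0559) or WT_3 (0.083), and with library totals (0.0875), limma with a pseudocount of 1 (0.0914), limma with a pseudocount of 0.1 (0.0928) and limma with no filter (0.0977).

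GALM, the mutarotase that interconverts the anomers of glucose, had the highest mean FPKM of the next step, 28.6 (FT_1), 23.2 (FT_2) and 23.1 (FT_3) beside 34.2 (WT_1), 35.7 (WT_2) and 30.0 (WT_3). As deposited, the FT libraries were below the WT libraries, by a small margin for FT_1. That margin was lost after division by edgeR's scaling factors, where the groups overlapped. On the log2 scale the difference was -0.26 ± 0.11 (SE; adjusted p = 0.12), which did not pass, and -0.35 (adjusted p = 0.00428) without FT_1, over a range of 0.00428 to 0.293 in the alternatives. The phosphoglucomutase PGM1, which links glycogen to glucose 6-phosphate, had FPKM values of 22.1 to 27.6 in the FT libraries and 25.6 to 27.5 in WT cells, which overlapped (log2 fold change 0.04). PGM2, which acts on pentose phosphates as well, had 11.5 (FT_1), 17.9 (FT_2) and 17.6 (FT_3) beside 24.4 (WT_1), 21.3 (WT_2) and 23.1 (WT_3), with FT_1 lowest and no overlap between the groups. Its log2 fold change was -0.39, which did not pass with 6 libraries, and -0.20 (adjusted p = 0.0425) without FT_1, over a range of 0.0425 to 0.329 in the alternatives.

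GPI, the isomerase that makes fructose 6-phosphate (ENSBTAG00000006396, chromosome 18, 44782828 to 44812532), fell. The FPKM was 174 (FT_1), 177 (FT_2) and 172 (FT_3) beside 256 (WT_1), 289 (WT_2) and 249.5 (WT_3). All 3 FT libraries, FT_1 included, were close together and below the WT libraries. The group means were 174 ± 2.76 (SD, n = 3) for FT and 265 ± 21.1 for WT, and the log2 fold change was -0.45 ± 0.09 (SE; adjusted p = 0.0119), or -0.43 without FT_1. It passed in each alternative but the replicate block, with an adjusted p of 6.19e-05 to 0.0521 over the 15.

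Phosphofructokinase commits the sugar to glycolysis, and its subunits come from 3 genes. PFKM, the muscle-type subunit and a target of the study's RT-qPCR (ENSBTAG00000000286, chromosome 5, 32145678 to 32189023), fell. Its FPKM was 6.78 (FT_1), 11.4 (FT_2) and 11.1 (FT_3) beside 20.1 (WT_1), 22.4 (WT_2) and 21.4 (WT_3). Each FT library was below each WT library, and FT_1 was the lowest. In the test, the log2 fold change was -0.96 ± 0.22 (SE; adjusted p = 0.0166), and -0.75 without FT_1. The call was lost without WT_1 (0.0531), WT_2 (0.0645) or WT_3 (0.058). PFKP, the platelet-type subunit, fell as well, from a WT mean of 43.8 ± 2.81 to an FT mean of 27.7 ± 1.19 (SD, n = 3), with a log2 fold change of -0.50 ± 0.09 (SE; adjusted p = 0.00717). The values of its 3 FT libraries lay within 26.5 to 28.9, and FT_1 did not stand apart.

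PFKL, the liver-type subunit and the most abundant of the 3 by its mean over the libraries, had an FPKM of 79.3 (FT_1), 43.5 (FT_2) and 39.9 (FT_3) beside 42.6 (WT_1), 46.5 (WT_2) and 44.3 (WT_3). FT_1 was well above all other libraries, whereas FT_2 lay within the WT range and FT_3 below it. The log2 fold change of 0.44 ± 0.26 (SE; adjusted p = 0.225) did not pass, and without FT_1 it was 0.08. As a part of the summed FPKM of the step, PFKL made up 70.4%, 52.7% and 49.9% (FT_1, FT_2, FT_3) and 40.8%, 40.1% and 40.9% (WT_1, WT_2, WT_3). PFKM made up 6.02%, 13.8% and 13.9% (FT_1, FT_2, FT_3) and 19.2%, 19.3% and 19.8% (WT_1, WT_2, WT_3). The balance of the subunit genes therefore lay further towards PFKL in each FT library, and furthest in FT_1.

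Fructose bisphosphatase runs the phosphofructokinase step backwards in gluconeogenesis. FBP1, its liver form, had an FPKM of 9.20 (FT_1), 1.70 (FT_2) and 1.27 (FT_3) beside 2.06 (WT_1), 2.49 (WT_2) and 2.91 (WT_3). FT_1 was the highest library, and FT_2 and FT_3 were below all WT libraries. The log2 fold change therefore took its sign from FT_1, at 0.85 ± 0.76 (SE; adjusted p = 0.414) with 6 libraries and -0.57 (adjusted p = 0.0533) without FT_1, and neither passed. Over the 15 alternatives its adjusted p was 0.0533 to 0.884. FBP2, the muscle form, reached an FPKM of 0.32 in FT_1 and 0.03 or less elsewhere.

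Aldolase cleaves fructose 1,6-bisphosphate into the triose phosphates. ALDOA, the muscle and general form (ENSBTAG00000012927, chromosome 25, 26212553 to 26218476), had an FPKM of 642 (FT_1), 434 (FT_2) and 446 (FT_3) beside 569 (WT_1), 664 (WT_2) and 567 (WT_3). FT_1 lay within the WT range, and FT_2 and FT_3 lay below it. With 6 libraries the log2 fold change was -0.09 ± 0.17 (SE; adjusted p = 0.722), and without FT_1 it was -0.28 (adjusted p = 0.0121). Over the alternatives the adjusted p ran from 0.0121 to 0.974, and of these it was under 0.05 only where FT_1 was left out. The log2 fold change reached 0.01, just above 0, in 1 of the 15. ALDOC, the brain form, had an FPKM of 5.21 (FT_1), 14.3 (FT_2) and 15.2 (FT_3) beside 6.93 (WT_1), 6.50 (WT_2) and 7.59 (WT_3), so that FT_2 and FT_3 were above the WT libraries and FT_1 below them. Its log2 fold change was 0.89 with 6 libraries, which did not pass, and 1.24 (adjusted p = 4.79e-06) without FT_1, over a range of 4.79e-06 to 0.367 in the alternatives.

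TPI1 interconverts the triose phosphates and has no isozyme gene in the list. Its FPKM was 317 (FT_1), 262 (FT_2) and 264 (FT_3) beside 363 (WT_1), 420.1 (WT_2) and 362 (WT_3). The groups did not overlap, and FT_1 lay between the other FT libraries and the WT libraries. The fold change on the log2 scale was -0.29 ± 0.11 (SE; adjusted p = 0.0928), which did not pass, and -0.37 (adjusted p = 0.00219) without FT_1. Its adjusted p ran from 0.00219 to 0.253 over the alternatives.

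**Figure D2:**
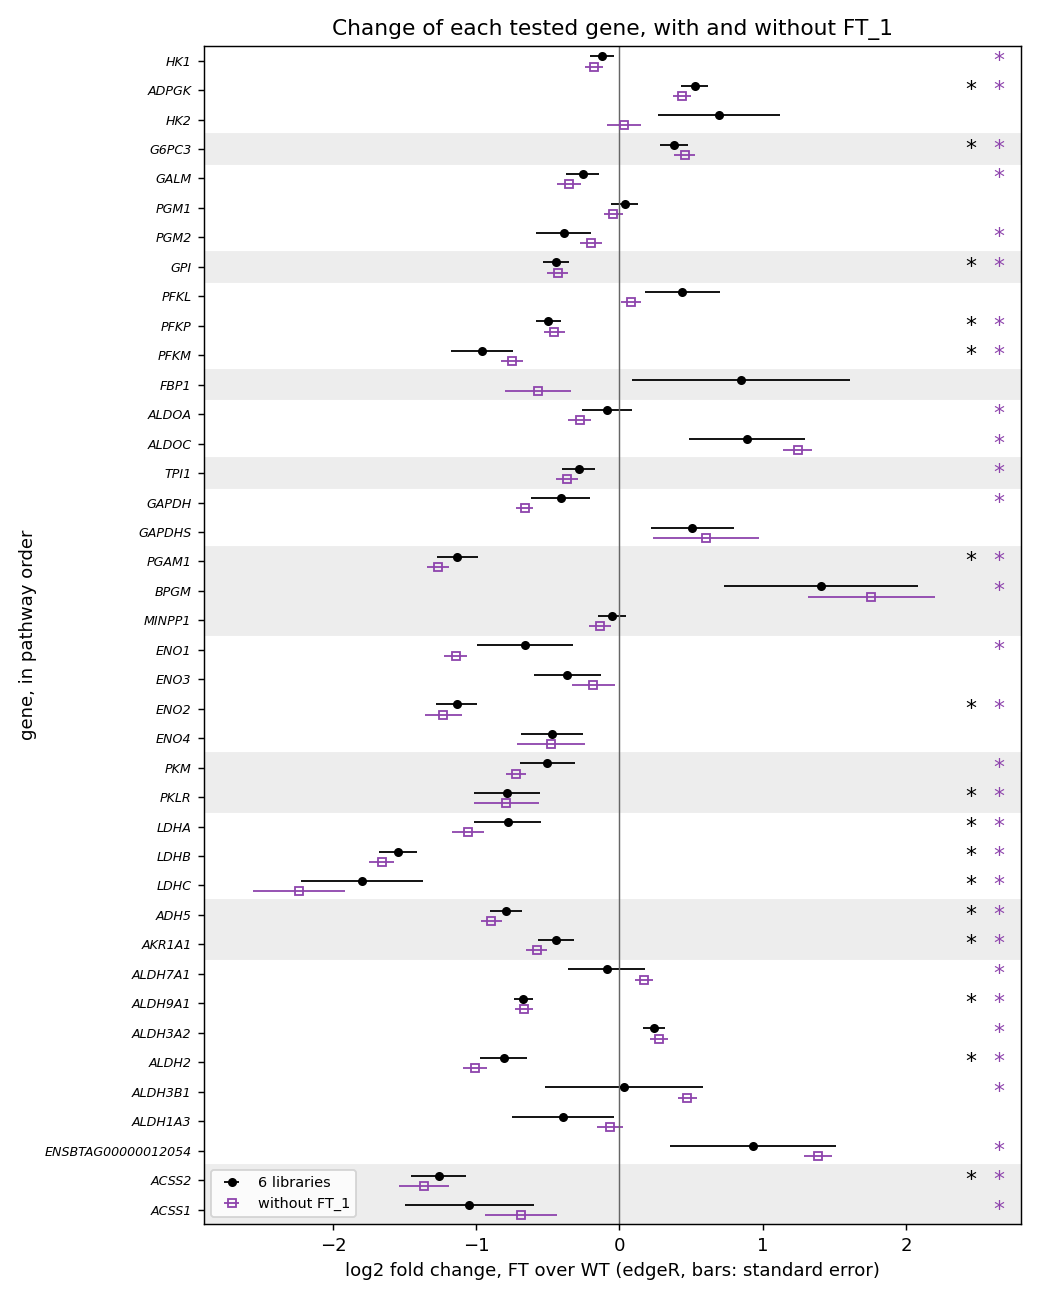
Log2 fold change of FT over WT cells for the tested genes whose FPKM averaged 0.5 or more, in pathway order, from edgeR with 6 libraries (black circles) and without FT_1 (open purple squares), with bars for 1 standard error and asterisks at the right for an adjusted p under 0.05 in the fit of the same colour. The 14 genes that fell and the 2 that rose with 6 libraries carry both asterisks, and FBP1 lies on opposite sides of 0 in the 2 fits.

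The payoff steps begin with GAPDH, which oxidizes glyceraldehyde 3-phosphate and reduces NAD (ENSBTAG00000014731, chromosome 5, 103870384 to 103874824). It was the most abundant of the 47 genes, with an FPKM of 1626 (FT_1), 1022 (FT_2) and 996 (FT_3) beside 1749 (WT_1), 1851 (WT_2) and 1790 (WT_3). As deposited, FT_1 was just below the WT libraries, which it was not after division by edgeR's scaling factors. FT_2 and FT_3 were far below them. Tested with 6 libraries, the log2 fold change was -0.41 ± 0.21 (SE; adjusted p = 0.164), which did not pass, and -0.66 (adjusted p = 9.37e-06) without FT_1. Over the alternatives its adjusted p ran from 9.37e-06 to 0.36. GAPDHS, the sperm form, had 0.62 (FT_1), 0.79 (FT_2) and 0.72 (FT_3) beside 0.54 (WT_1), 0.53 (WT_2) and 0.60 (WT_3). As deposited, it was the only tested gene besides ADPGK and G6PC3 whose FT values were all above WT, where 4 were after division by edgeR's scaling factors. GAPDHS was at a level under 1 and did not pass (log2 fold change 0.51).

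PGAM1, the phosphoglycerate mutase of most tissues (ENSBTAG00000012697, chromosome 26, 18649023 to 18655665), fell. Its FPKM was 292 (FT_1), 218 (FT_2) and 222 (FT_3) beside 580.4 (WT_1), 654 (WT_2) and 556 (WT_3). All FT libraries, FT_1 included, lay far below the WT libraries. The group means were 244 ± 41.7 (SD, n = 3) for FT and 597 ± 51.4 for WT, the log2 fold change was -1.13 ± 0.14 (SE; adjusted p = 0.00252), and without FT_1 it was -1.27. It passed under all 15 alternatives.

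BPGM, which makes 2,3-bisphosphoglycerate, the ligand that lowers the oxygen affinity of haemoglobin, varied in both groups. The FPKM was 6.47 (FT_1), 18.7 (FT_2) and 20.5 (FT_3) beside 11.6 (WT_1), 5.39 (WT_2) and 2.40 (WT_3). FT_2 and FT_3 were highest, FT_1 lay within the WT range, and the WT libraries themselves spread widely. The log2 fold change of 1.40 ± 0.68 (SE; adjusted p = 0.149) was the highest of the 42 genes and did not pass with 6 libraries, and without FT_1 it was 1.76 (adjusted p = 0.00632). In the alternatives its adjusted p ran from 0.00632 to 0.325. MINPP1, a phosphatase that can act on the same metabolite, had FPKM values of 6.86 to 8.40 in the FT libraries and 8.24 to 9.14 in WT cells, which overlapped. PGAM2, the muscle mutase, was not tested and was highest in FT_1.

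Enolase makes phosphoenolpyruvate. ENO1, its general form (ENSBTAG00000013411, chromosome 16, 44553028 to 44566771), had an FPKM of 792 (FT_1), 366 (FT_2) and 340.1 (FT_3) beside 844 (WT_1), 960.3 (WT_2) and 827 (WT_3). As deposited, FT_1 lay just below the WT libraries, while FT_2 and FT_3 were at 40.2% of the WT mean on average. After division by edgeR's scaling factors FT_1 lay within the WT range. With 6 libraries the log2 fold change was -0.66 ± 0.33 (SE; adjusted p = 0.165), which did not pass, and without FT_1 it was -1.14 (adjusted p = 1.74e-06). Over the 15 alternatives the adjusted p ran from 1.74e-06 to 0.35, and it was under 0.05 only without FT_1.

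ENO2, the neuronal form, was far less abundant and fell. Its FPKM was 2.44 (FT_1), 2.20 (FT_2) and 1.78 (FT_3) beside 5.19 (WT_1), 5.52 (WT_2) and 5.05 (WT_3). Each FT library, FT_1 included, was below each WT library. By edgeR the log2 fold change was -1.14 ± 0.14 (SE; adjusted p = 0.00249), and -1.23 without FT_1, and it passed under all 15 alternatives. ENO3, the muscle form, had 19.0 (FT_1), 31.0 (FT_2) and 26.5 (FT_3) beside 29.6 (WT_1), 36.1 (WT_2) and 44.5 (WT_3), and the groups overlapped. ENO4, a form known from sperm, had an FPKM of 1.07 or less in each library and did not pass.

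Pyruvate kinase closes the pathway. PKM, the form of muscle and most other tissues and also a target of the study's RT-qPCR (ENSBTAG00000001601, chromosome 10, 19137899 to 19165177), had an FPKM of 785 (FT_1), 522 (FT_2) and 507 (FT_3) beside 901 (WT_1), 1022 (WT_2) and 941 (WT_3). The FT libraries were below the WT libraries, and FT_1 was the highest of the 3. The fitted log2 fold change was -0.50 ± 0.19 (SE; adjusted p = 0.0819), which did not pass with 6 libraries, and -0.72 (adjusted p = 1.44e-05) without FT_1. In the alternatives the adjusted p ran from 1.44e-05 to 0.215 and was under 0.05 in 6 of 15. PKLR, the liver and red cell form, fell at a low level, from a WT mean of 1.22 ± 0.0611 to an FT mean of 0.627 ± 0.127 (SD, n = 3), with a log2 fold change of -0.78 ± 0.23 (SE; adjusted p = 0.0397). Its call was lost without FT_2 (0.101), WT_1 (0.105), WT_2 (0.122) or WT_3 (0.111), and with no filter (0.0588), limma with the length trend removed (0.0589) and the replicate block (0.102).

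Lactate dehydrogenase turns pyruvate into lactate, and its 3 genes in the list, LDHA, LDHB and LDHC, all fell, where 18.9% of all tested genes fell. LDHB, the heart-type subunit (ENSBTAG00000019603, chromosome 5, 88544523 to 88562783), had an FPKM of 125 (FT_1), 105 (FT_2) and 90.2 (FT_3) beside 335 (WT_1), 375 (WT_2) and 330.0 (WT_3). All FT libraries were far below the WT libraries, and FT_1 was close to the other FT libraries. The group means were 107 ± 17.3 (SD, n = 3) for FT and 347 ± 24.4 for WT. edgeR put the log2 fold change at -1.54 ± 0.13 (SE; adjusted p = 0.00102), and -1.66 without FT_1, and it passed under all 15 alternatives.

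LDHA, the muscle-type subunit (ENSBTAG00000008683, chromosome 29, 26290893 to 26301350), had an FPKM of 319 (FT_1), 189 (FT_2) and 191 (FT_3) beside 439 (WT_1), 516 (WT_2) and 381 (WT_3). The groups did not overlap, but FT_1 was nearer to the lowest WT library than to the other FT libraries. With 6 libraries the log2 fold change was -0.78 ± 0.23 (SE; adjusted p = 0.0426), and -1.06 without FT_1. The call was lost without FT_2 (0.115), FT_3 (0.116), WT_1 (0.113), WT_2 (0.139) or WT_3 (0.0726), and with the replicate block (0.0682). LDHC, the testis form, had an FPKM of 0.91 (FT_1), 0.31 (FT_2) and 0.54 (FT_3) beside 2.07 (WT_1), 2.69 (WT_2) and 2.13 (WT_3), from counts of 84, 22 and 42 (FT_1, FT_2, FT_3) and 208, 198 and 165 (WT_1, WT_2, WT_3). It was lower in each FT library, at a low level, with a log2 fold change of -1.80 ± 0.42 (SE; adjusted p = 0.0196), the lowest of the 42 genes. This call was lost without FT_3 (0.0633), WT_1 (0.061), WT_2 (0.0756) or WT_3 (0.0585), and with the replicate block (0.0599).

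The ratio of LDHB to LDHA in FPKM was 0.391 (FT_1), 0.555 (FT_2) and 0.471 (FT_3) beside 0.764 (WT_1), 0.725 (WT_2) and 0.865 (WT_3). It was lower in each FT library than in each WT library, and lowest in FT_1. LDHA accordingly made up 71.7%, 64.3% and 67.8% (FT_1, FT_2, FT_3) and 56.5%, 57.8% and 53.5% (WT_1, WT_2, WT_3) of the summed FPKM of the step. This ratio is taken within a library and does not depend on the scaling between libraries.

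**Figure D3:**
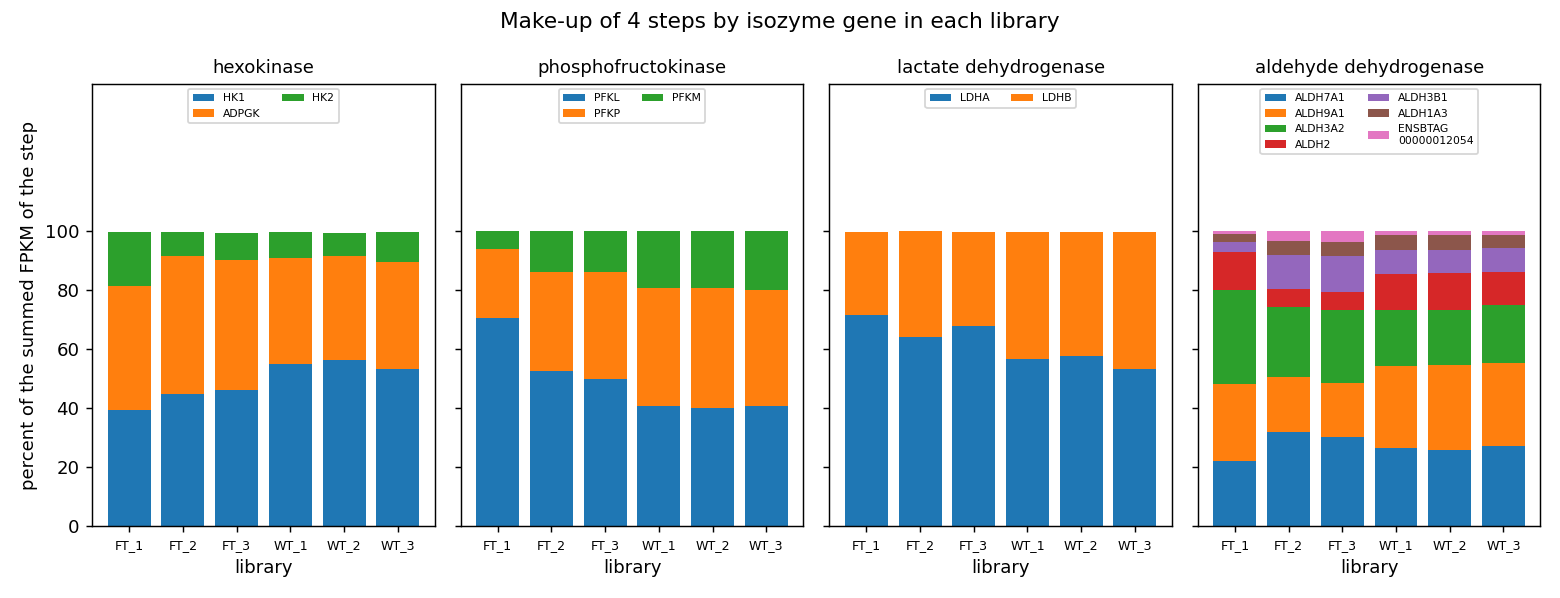
Make-up of the hexokinase, phosphofructokinase, lactate dehydrogenase and aldehyde dehydrogenase steps, as the percent of the summed FPKM that each gene gave in each library, for genes that gave at least 1 percent in some library. The FT bars hold more PFKL and LDHA and less HK1, PFKM and LDHB than the WT bars.

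KEGG attaches the alcohol and aldehyde branch to the pathway through acetaldehyde and acetate. Of its 11 tested genes 5 fell and 0 rose, against 18.9% and 20.1% of all genes. Without FT_1, 6 were lower and 4 higher, against 31.5% and 30.6%. ADH5, a class III alcohol dehydrogenase that clears formaldehyde, had an FPKM of 54.0 (FT_1), 43.6 (FT_2) and 42.5 (FT_3) beside 90.0 (WT_1), 95.9 (WT_2) and 84.9 (WT_3). Each FT library was below each WT library. On the log2 scale the difference was -0.79 ± 0.11 (SE; adjusted p = 0.00332), and -0.90 without FT_1. AKR1A1, an aldehyde reductase, fell from a WT mean of 58.0 ± 2.62 to an FT mean of 38.4 ± 6.75 (SD, n = 3), with a log2 fold change of -0.44 ± 0.13 (SE; adjusted p = 0.0363). Its call was lost without FT_2 (0.105), FT_3 (0.0936), WT_1 (0.0927), WT_2 (0.118) or WT_3 (0.0944), and with the replicate block (0.0764). ADH1C and ADH6 were at an FPKM of 0.15 or less in each library.

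Of the 7 aldehyde dehydrogenase genes, ALDH7A1, which acts in lysine breakdown, was the most abundant by its mean over the 6 libraries. ALDH9A1 was above it in each WT library and in FT_1, and ALDH3A2 was above it in FT_1. ALDH7A1 had an FPKM of 29.2 (FT_1), 58.9 (FT_2) and 54.8 (FT_3) beside 57.2 (WT_1), 54.5 (WT_2) and 58.6 (WT_3). FT_1 was the lowest library and FT_2 and FT_3 overlapped with WT. In the test, the log2 fold change was -0.09 ± 0.27 (SE; adjusted p = 0.815) with 6 libraries, and without FT_1 it took the opposite sign, 0.17 (adjusted p = 0.0429). Over the alternatives its adjusted p ran from 0.0429 to 0.899. ALDH9A1, an enzyme of carnitine synthesis, fell, from a WT mean of 60.7 ± 0.258 to an FT mean of 34.1 ± 1.12 (SD, n = 3), with a log2 fold change of -0.67 ± 0.07 (SE; adjusted p = 0.0013). ALDH2, the mitochondrial acetaldehyde dehydrogenase, fell too, with an FPKM of 16.8 (FT_1), 11.5 (FT_2) and 11.2 (FT_3) beside 26.8 (WT_1), 26.5 (WT_2) and 23.9 (WT_3) and a log2 fold change of -0.81 ± 0.17 (SE; adjusted p = 0.0121). In both genes the groups did not overlap. The call of ALDH2 was lost without WT_1 (0.0525) or WT_2 (0.0513).

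Among the remaining aldehyde dehydrogenases, ALDH3B1 had 4.57 (FT_1), 21.4 (FT_2) and 21.8 (FT_3) beside 17.7 (WT_1), 17.1 (WT_2) and 17.6 (WT_3), and its neighbour ENSBTAG00000012054, which has no symbol in the authors' table, had 1.27 (FT_1), 6.35 (FT_2) and 6.42 (FT_3) beside 2.85 (WT_1), 2.91 (WT_2) and 2.50 (WT_3). In both, FT_2 and FT_3 were above the WT libraries and FT_1 was below them. ALDH3B1 had the sign of its 6-library value in 7 of the 15 alternatives. Neither passed with 6 libraries (log2 fold change 0.03 and 0.93), whereas without FT_1 the values were 0.47 (adjusted p = 1.68e-04) and 1.38 (adjusted p = 2.03e-06). Their adjusted p ran from 1.68e-04 to 0.993 and from 2.03e-06 to 0.595 over the alternatives. ALDH3A2, the fatty aldehyde dehydrogenase, had 41.8 to 44.5 in the FT libraries and 39.2 to 42.5 in WT cells, which overlapped (log2 fold change 0.24, adjusted p = 0.0539), and without FT_1 its value was 0.28 (adjusted p = 0.00397), over a range of 0.00397 to 0.376. ALDH1A3, which makes retinoic acid, had 3.50 (FT_1), 8.33 (FT_2) and 9.06 (FT_3) beside 10.6 (WT_1), 10.3 (WT_2) and 9.83 (WT_3), lowest in FT_1.

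ACSS2, which makes acetyl-CoA from acetate in the cytosol and nucleus, fell at a low level. Its FPKM was 1.03 (FT_1), 0.90 (FT_2) and 0.76 (FT_3) beside 2.24 (WT_1), 2.29 (WT_2) and 2.69 (WT_3), from counts of 201, 133 and 127 (FT_1, FT_2, FT_3) and 476, 359 and 446 (WT_1, WT_2, WT_3). All FT libraries were below the WT libraries. The fold change on the log2 scale was -1.26 ± 0.19 (SE; adjusted p = 0.00433), and -1.36 without FT_1, and it passed under all 15 alternatives. ACSS1, its mitochondrial counterpart, had 0.17 (FT_1), 0.48 (FT_2) and 0.49 (FT_3) beside 0.88 (WT_1), 0.92 (WT_2) and 0.84 (WT_3), with a log2 fold change of -1.05 that did not pass. Without FT_1 it was smaller in size and passed, at -0.69 (adjusted p = 0.0358), and the adjusted p ran from 0.0289 to 0.239 over the 14 alternatives that tested it.

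Summed over the genes of a step, FPKM can be followed along the pathway in each library. The FT sums lay below the WT sums without overlap at 11 of the 16 steps and above them at 1, glucose-6-phosphatase, while the hexokinase, phosphofructokinase, fructose bisphosphatase and aldolase sums overlapped. Of all tested genes, each taken singly, 36.9% lay below and 21.8% above on that scale. Without FT_1 the FT sums were below at 15 steps and above at 1, against 47.6% and 29.6% of single genes. On FPKM divided by edgeR's scaling factors, 9 steps were lower and 2 higher, against 29.7% and 28.0% of single genes. On TPM 8 steps were lower and 2 higher, and the share of single genes was not computed on that scale. Hexokinase was the step added to glucose-6-phosphatase on both of these scales. The lactate dehydrogenase sum was 444, 295 and 282 (FT_1, FT_2, FT_3) beside 776, 894 and 713 (WT_1, WT_2, WT_3). Its FT mean was 42.8% of the WT mean, and 49.3% in TPM.

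The other large gaps were at phosphoglycerate mutase with bisphosphoglycerate, where the FT mean was 43.7% of the WT mean, and at acetyl-CoA synthetase, with 38.8%. For enolase it was 57.3%, made up of 88.5% in FT_1 and 41.8% over FT_2 and FT_3. Among the preparatory steps, the FT mean was 65.8% of the WT mean for the isomerase GPI and 73.5% for TPI1, and other steps were nearer to WT. It was 105% for hexokinase, 83.7% for phosphofructokinase and 85.5% for aldolase. FT_1 was above the WT mean in these 3 steps, at 125%, 103% and 107%, and FT_2 and FT_3 together were below it, at 94.9%, 74.2% and 74.9%.

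**Figure D4:**
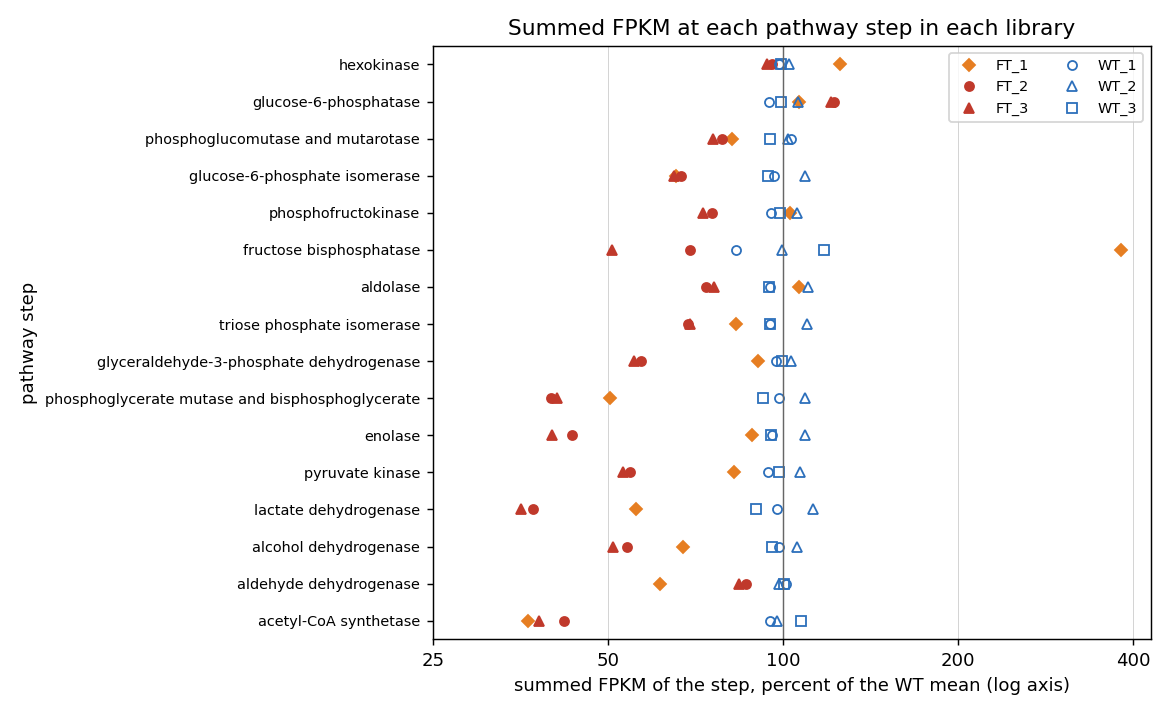
Summed FPKM of the genes at each pathway step in each library, as a percent of the mean of the WT libraries (log axis), with filled symbols for FT, open symbols for WT and FT_1 as the orange diamond. FT_2 and FT_3 lie below 100 at every step but glucose-6-phosphatase on this scale (hexokinase lies above WT on the other scales), and FT_1 lies furthest from them at fructose bisphosphatase, at 380.3% of the WT mean.

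The genes also share positions that the rule did not use. LDHC and LDHA lie 4.51 kb apart on the same strand of chromosome 29, and both fell. ENO2 and TPI1 lie 32.9 kb apart on chromosome 5, with GAPDH 286 kb beyond TPI1, all on the minus strand. Only ENO2 of these 3 fell with 6 libraries. ALDH3B1 and ENSBTAG00000012054, 32.9 kb apart on opposite strands of chromosome 29, were both lowest in FT_1 and highest in FT_2 and FT_3. PKM and ADPGK lie 381 kb apart on chromosome 10 and had log2 fold changes of opposite sign, -0.50 and 0.53, of which that of ADPGK passed the test. Some of the genes share bases with another gene of the table, among them HK1, PFKL, PFKP, FBP1, ALDOA, TPI1, ENO2, ENO3 and ENO4.

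Genes on either side of the pathway were taken from fixed lists. Of 8 genes of the SLC2A (glucose transporter) family, all tested, 3 rose and 1, the myo-inositol transporter SLC2A13, fell, against 20.1% and 18.9% of all genes. SLC2A3, a high-affinity transporter and the most abundant of them, had an FPKM of 63.9 (FT_1), 30.6 (FT_2) and 31.6 (FT_3) beside 39.4 (WT_1), 36.8 (WT_2) and 44.9 (WT_3), highest in FT_1, and did not pass. SLC2A1, the basal transporter of fibroblasts, rose. It had 11.6 (FT_1), 7.02 (FT_2) and 6.39 (FT_3) beside 3.99 (WT_1), 3.80 (WT_2) and 3.21 (WT_3), each FT library above each WT library and FT_1 highest, with a log2 fold change of 1.34 ± 0.24 (SE; adjusted p = 0.00811) and 1.04 without FT_1. SLC2A4, the insulin-responsive transporter, rose from near 0, with counts of 259, 275 and 188 (FT_1, FT_2, FT_3) and 5, 17 and 12 (WT_1, WT_2, WT_3) and a log2 fold change of 4.57 ± 0.60 (SE; adjusted p = 0.00288). SLC2A13 had 3.51 (FT_1), 3.88 (FT_2) and 3.63 (FT_3) beside 7.20 (WT_1), 5.88 (WT_2) and 6.43 (WT_3), each FT library below each WT library, and a log2 fold change of -0.66 ± 0.13 (SE; adjusted p = 0.0115).

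Of 5 genes of lactate export, 4 were tested, of which 2 rose and 0 fell, against 20.1% and 18.9% of all genes. SLC16A1 of this list had an FPKM of 51.5 (FT_1), 10.6 (FT_2) and 11.8 (FT_3) beside 22.9 (WT_1), 24.8 (WT_2) and 22.5 (WT_3). Its log2 fold change was 0.22 with 6 libraries, which did not pass, and -0.89 (adjusted p = 1.11e-05) without FT_1. BSG (basigin), the chaperone of the lactate transporters, had an FPKM of 461 (FT_1), 460.3 (FT_2) and 446 (FT_3) beside 304 (WT_1), 310.1 (WT_2) and 312 (WT_3). The groups did not overlap, and FT_1 was close to FT_2. Tested with 6 libraries, the log2 fold change was 0.72 ± 0.08 (SE; adjusted p = 0.00162). SLC16A3, a lactate exporter, had 9.54 (FT_1), 1.28 (FT_2) and 1.46 (FT_3) beside 0.24 (WT_1), 0.15 (WT_2) and 0.06 (WT_3), from counts of 1485, 152 and 194 (FT_1, FT_2, FT_3) and 42, 19 and 8 (WT_1, WT_2, WT_3). It was above WT in each FT library and highest in FT_1, with a log2 fold change of 4.87 ± 1.06 (SE; adjusted p = 0.0149) and of 3.30 without FT_1. Of the 4 genes in the table that set fructose 2,6-bisphosphate, the activator of phosphofructokinase, 0 of 4 passed in either direction with edgeR, limma or DESeq2, and PFKFB3, the most abundant, had 3.61 (FT_1), 6.32 (FT_2) and 6.23 (FT_3) beside 5.82 (WT_1), 4.85 (WT_2) and 5.04 (WT_3), lowest in FT_1. At an unadjusted p under 0.05 alone the count was 0 of 4, where 25.7% of all genes were higher and 23.9% lower. At an adjusted p under 0.05, 20.1% of all genes rose and 18.9% fell with edgeR. Limma placed 1837 genes higher and 3573 lower, and DESeq2 3238 and 2966.

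Of 12 genes in the table for the entry of pyruvate into mitochondria and its oxidation there, 4 fell and 1 rose, where 18.9% of all genes fell and 20.1% rose. MPC2, a subunit of the mitochondrial pyruvate carrier, had an FPKM of 24.1 (FT_1), 25.2 (FT_2) and 22.7 (FT_3) beside 76.4 (WT_1), 73.7 (WT_2) and 66.4 (WT_3). All FT libraries, FT_1 included, were far below WT, with a log2 fold change of -1.43 ± 0.09 (SE; adjusted p = 5.32e-04). PDHB and DLAT, subunits of pyruvate dehydrogenase, fell by 1.04 and fell by 1.06 on the log2 scale (adjusted p = 0.00162 and 0.00204), and in neither did the groups overlap. Without FT_1 the lists held 4 higher and 2 lower of the transporters, 2 higher and 1 lower of lactate export, 2 higher of the fructose 2,6-bisphosphate genes, and 2 higher and 7 lower of pyruvate entry, out of 8, 4, 4 and 12 tested. Of all genes 30.6% were higher and 31.5% lower in that fit. SLC16A3 passed in 11 of the 15 alternatives and SLC2A13 in 13, and BSG, MPC2 and SLC2A1 in all 15.

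**Figure D5:**
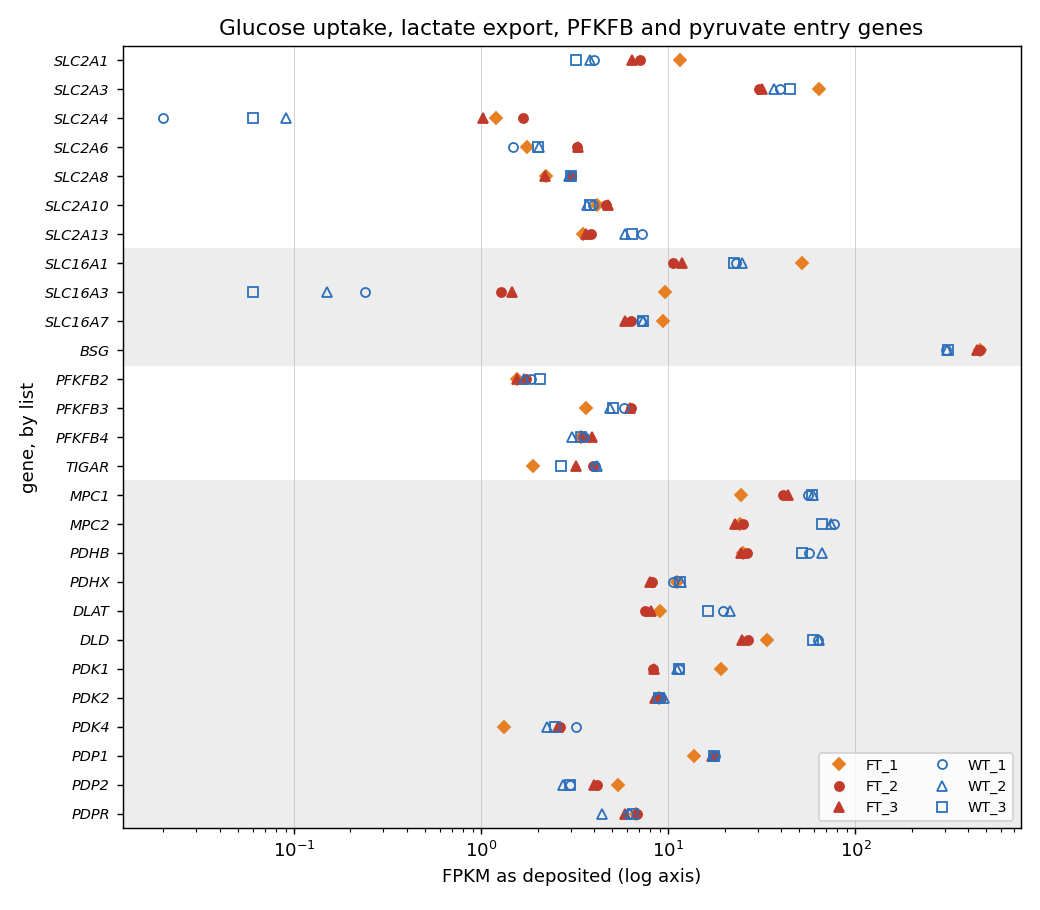
FPKM as deposited (log axis) of the tested genes of glucose uptake, lactate export, fructose 2,6-bisphosphate control and pyruvate entry, with grey bands between lists and 1 symbol per library, filled for FT and open for WT. SLC2A12, which was at 0 in FT_2 and FT_3, is left out, and the symbols of SLC2A4, SLC16A3, BSG and MPC2 show groups without overlap.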

How the data were processed

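The authors deposited 1 table with a count and an FPKM column for each of the 6 libraries and with annotation, which includes KEGG pathways and coordinates. The count values were made by the authors from reads aligned to a reference genome, before deposition. The FPKM values as deposited were made by the authors with StringTie. The processing notes name Bowtie 0.12.2, HISAT2 2.0 and StringTie 1.3.0, and a build mm8, which is a mouse build. The cattle build is not given in the sources used here, nor is how reads of overlapping genes or of each strand were counted.

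Counts were compared with edgeR 4.0.16 (TMM scaling, its filter on low counts, quasi-likelihood F test, Benjamini-Hochberg over all tested genes) in R 4.3.3. The standard error was taken as the size of the log2 fold change over the square root of F. Alternatives were median-ratio size factors, library totals, no filter, DESeq2 1.42.0, limma 3.58.1 on log2 FPKM with pseudocounts of 1 and 0.1, with no filter and with a length trend removed, replicate number as a block, and each library left out. The code was tested on simulated data.

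Genes named in full were those the study measured by RT-qPCR (HK1, PFKM, PKM), the most abundant gene of each step, and up to 2 more per step with an adjusted p under 0.05 and a log2 fold change beyond 1 in size. Of each companion list the most abundant gene and up to 3 with the largest changes past the threshold were named. Abundance was ranked by the mean FPKM over the 6 libraries. Genes outside that rule are given with shorter values and were chosen after their values were seen. The genes and lists were chosen with earlier results of these data known. Companion lists were glucose uptake, lactate export, fructose 2,6-bisphosphate control, pyruvate entry, pentose phosphate pathway, glycogen, gluconeogenic entry and transcription factors. Cell type lists were fibroblast, skeletal muscle, epithelial, endothelial, macrophage and blood, erythroid, adipocyte, neural and mesothelial. Genes with no entry in the table, among them PGK1, PGK2, PDHA1, PDK3 and PFKFB1, were not analysed here. A planned search of promoters for motifs was not run, since no promoter sequences were at hand.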

Additional observations from a re-analysis of the deposited data

How the results depend on the processing

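Each result was recomputed under 15 alternatives, 1 choice at a time. Of the 16 genes that fell or rose, all 16 kept their call and direction with median-ratio size factors, with DESeq2 and without FT_1. With library totals and with limma on FPKM at both pseudocounts and with no filter, 15 kept it and G6PC3 lost it. With no filter on low counts and with the length trend removed, 15 kept it and PKLR lost it. Fewer were kept with the replicate block (11), without FT_2 (12), FT_3 (12), WT_1 (9), WT_2 (9) and WT_3 (10). The calls lost there were among those of G6PC3, GPI, PFKM, PKLR, LDHA, LDHC, AKR1A1 and ALDH2.

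Scaling moved the level of all genes. Their median log2 fold change was 0.03 with TMM (edgeR's scaling), -0.12 with library totals and -0.12 with limma on log2(FPKM + 1). The median of the tested genes of the list, -0.38 with TMM, was -0.53 with library totals, -0.31 with no filter, -0.30 with DESeq2, -0.45 with limma at a pseudocount of 1 and -0.57 at 0.1. These are medians of 42 genes with library totals, 47 with no filter and with DESeq2 and 40 with limma, so more genes of low count enter with no filter and with DESeq2, and the cause of the rest of the shifts was not tested. The genes that rose numbered 1 with library totals and with limma at both pseudocounts and with no filter, in place of 2. Of all genes, 2714 rose and 2547 fell with TMM, and 2049 and 3394 with library totals. At the study's threshold DESeq2 gave 1 higher gene in place of 0. Lower genes there were 5 with TMM (of all genes 1208), and 7 with library totals (1568) and with limma at a pseudocount of 0.1 (1451). Limma at a pseudocount of 1 gave 4 (1026), and 3 (706) with the length trend removed. At an adjusted p under 0.05, limma placed 19 lower at both pseudocounts in place of 14. Of all genes it placed 3573 lower at a pseudocount of 1 and 3529 at 0.1, in place of 2547.

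Summed FPKM in FT cells was 117% of WT at glucose-6-phosphatase, and 129.7% after division by the TMM factors and 135% in TPM. For phosphoglucomutase with mutarotase it was 78.6%, 87.2% and 90.6%, and for the isomerase it was 65.8% and, in TPM, 75.9%. The scaling, the same for all genes, also changed which groups overlapped. On both other scales the hexokinase sums, which overlapped as deposited, lay above WT, and the glyceraldehyde-3-phosphate dehydrogenase and enolase sums, below WT as deposited, overlapped. In TPM the aldehyde dehydrogenase sums did so as well.

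Replicate numbers were checked as pairs. Deviations from the group mean correlated between FT and WT libraries of the same number at r = -0.021, -0.027 and 0.046, which gave no sign of pairing. The distance of FT_1 from FT_2 and FT_3 enters the deviations of all FT libraries, so this check cannot exclude pairing. With the replicate block (the number as a factor in the edgeR fit), 9 genes fell in place of 14, of all genes 1741 in place of 2547, and the block uses residual degrees of freedom.

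Leaving out 1 library at a time, genes that rose numbered 1 to 8 and genes that fell 8 to 23. At the study's threshold they numbered 0 to 3 higher and 5 to 8 lower. The median of the genes tested each time (42 or 43) ran from -0.40 to -0.33. The upper ends of the counts were those without FT_1, and each omission leaves 5 libraries to test. Values of opposite sign and an adjusted p under 0.05 came without FT_1 for ALDH7A1 (0.17, others -0.27 and up), SLC16A1 (-0.89, others up to 0.58) and PDK1 (-0.27, others up to 0.43).

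Some comparisons without FT_1 or on other scales were added after seeing the data. Among them, genes whose FPKM lay above WT without overlap were 8 without FT_1 in place of 3, and those below WT 28 in place of 24. Of all tested genes 29.6% and 47.6% did so, in place of 21.8% and 36.9%, for which fewer libraries have to stay apart. With 3 libraries per group, and FT_1 apart from the others, genes at FPKM values near 1, such as LDHC, PKLR and ACSS2, rest on few reads, and the 5 untested genes give no fold change. The table gives 1 value per gene, so splice forms such as those of PKM are not resolved.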

Other observations

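Genes that draw on the intermediates of the pathway were also measured, from lists of the same kind. Of 6 pentose phosphate pathway genes in the table, 4 fell and 0 rose in edgeR's test, which placed 18.9% of all genes lower and 20.1% higher. At an unadjusted p under 0.05, 1 of them was higher, against 25.7% of all genes. At an adjusted p under 0.05, limma on log2(FPKM + 1) placed 0 of them higher, against 1837 of the 12247 genes it tested. TALDO1 (transaldolase), the most abundant, had an FPKM of 189 (FT_1), 93.1 (FT_2) and 85.6 (FT_3) beside 160.5 (WT_1), 168 (WT_2) and 169 (WT_3). FT_1 was the highest library and FT_2 and FT_3 the lowest, and the log2 fold change was -0.28 ± 0.30 (SE; adjusted p = 0.486), or -0.72 (adjusted p = 1.11e-05) without FT_1 (adjusted p from 1.11e-05 to 0.837 over the alternatives). RPIA, the ribose phosphate isomerase, fell. It had 2.95 (FT_1), 3.52 (FT_2) and 3.26 (FT_3) beside 10.1 (WT_1), 10.7 (WT_2) and 9.69 (WT_3), with all FT libraries below WT and a log2 fold change of -1.49 ± 0.14 (SE; adjusted p = 0.0013). PGD fell by 0.74 and RPE fell by 0.48 on the log2 scale.

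Of 7 tested glycogen genes, 4 fell and 2 rose (all genes: 18.9% and 20.1%). UGP2, which makes UDP-glucose, was the most abundant by its mean over the 6 libraries, though below the phosphorylase PYGL in FT_1 and FT_2. UGP2 fell, with 55.4 (FT_1), 70.0 (FT_2) and 74.5 (FT_3) beside 116 (WT_1), 106 (WT_2) and 118 (WT_3) and a log2 fold change of -0.61 ± 0.14 (SE; adjusted p = 0.0184). FT_1 was the lowest library. GYG1 (glycogenin) and the branching enzyme GBE1 also fell, with log2 fold changes of -1.07 and -0.90, and their groups did not overlap. UGP2 kept its call in 11 and GYG1 in 12 of the 15 alternatives. The genes that rose were glycogen synthase GYS1 and the phosphorylase PYGL. Of 2 tested genes of gluconeogenic entry, against those same shares, PCK2, the mitochondrial phosphoenolpyruvate carboxykinase, fell, with 53.7 (FT_1), 55.6 (FT_2) and 59.1 (FT_3) beside 92.3 (WT_1), 89.6 (WT_2) and 109 (WT_3) and a log2 fold change of -0.63 ± 0.11 (SE; adjusted p = 0.0066). The other, PC (pyruvate carboxylase), had 21.3 (FT_1), 9.08 (FT_2) and 8.44 (FT_3) beside 6.57 (WT_1), 6.57 (WT_2) and 7.22 (WT_3), above WT in each FT library and highest in FT_1. Its log2 fold change of 1.08 ± 0.36 (SE; adjusted p = 0.0583) did not pass with 6 libraries, and over the alternatives the adjusted p ran from 2.09e-04 to 0.175, under 0.05 in 3 of 15.

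Of 7 tested transcription factor genes linked to the pathway, against the same shares of all genes, 1 rose (TFEB, log2 fold change 0.84 ± 0.25 (SE; adjusted p = 0.0396)) and 1 fell (ESRRA, log2 fold change -0.32 ± 0.09 (SE; adjusted p = 0.0349)). Neither call was stable, as TFEB kept it in 3 and ESRRA in 9 of the 15 alternatives, with adjusted p from 2.62e-05 to 0.13 and from 0.00807 to 0.11. HIF1A, the hypoxia factor that drives glycolytic genes and the most abundant of the list, had an FPKM of 202 (FT_1), 49.8 (FT_2) and 54.4 (FT_3) beside 60.3 (WT_1), 57.5 (WT_2) and 57.9 (WT_3). FT_1 stood far above the other 5 libraries, among which FT_2 and FT_3 were just below WT, and the log2 fold change was 0.95 ± 0.55 (SE; adjusted p = 0.218), or 0.00 without FT_1. MYC, of the same list, was also highest in FT_1, with 95.5 (FT_1), 16.1 (FT_2) and 16.3 (FT_3) beside 19.4 (WT_1), 23.9 (WT_2) and 18.9 (WT_3). In FT_1 the genes of the pathway did not share 1 direction. In FPKM as deposited, HK2 and PFKL were above all other libraries and PGAM1, LDHA, ENO1 and GAPDH below each WT library. After division by edgeR's scaling factors and in TPM, the sums of the GAPDH and enolase steps in FT_1 were no longer below each WT library.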
